A study of Rattus norvegicus with 6 samples.

Results

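The genes described here are the 35 genes of cholesterol synthesis, uptake and efflux, taken by name from the 20104 genes in the deposited tables of rat liver RNA sequencing. They were divided by role into 9 genes of the mevalonate steps, 10 genes of the steps after squalene, 8 genes of uptake and regulation, and 8 genes of efflux or storage linked to the liver X receptors (LXR). All 35 were present and all 35 passed the filter on low counts, which kept 13872 genes. Liver was collected on day 14 after trauma from 3 samples whose wound was dressed with AKOC, a name the labels do not expand, and from 3 samples dressed with Quik-clot, a commercial hemostatic dressing that served as the control. The stated purpose was to grade the lasting inflammation that each dressing leaves. Every sample was injured and dressed, no uninjured liver was analysed, and the labels give no strain, sex, age or hour of collection. The labels do not say that the samples came from separate rats, so a p-value here reflects only how these samples spread, which may in part be technical.

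Cells make cholesterol from acetyl-CoA in a long chain of reactions. The mevalonate steps build squalene, and the later steps close its rings and trim them to cholesterol. When sterols run low in the endoplasmic reticulum, the escort protein Scap carries the transcription factor SREBP-2, encoded by Srebf2, to the Golgi for activation, and SREBP-2 switches on nearly all of these enzymes. When sterols are plentiful, the Insig proteins hold Scap back, while the LXR proteins, activated by oxysterols, raise the transporters that export sterol. The liver is the main organ that makes cholesterol, takes it up from lipoproteins and sends it into bile.

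The libraries held between 40402312 and 41455378 counted reads. All 9 hepatocyte markers passed the filter, and their summed level was 89030, 111400 and 142000 CPM (counts relative to the library total after TMM scaling) after AKOC, against 85800, 89550 and 116900 CPM after Quik-clot. Albumin, Alb, alone gave 73730, 91890 and 122900 CPM of these sums after AKOC, and 62630, 70130 and 90200 CPM after Quik-clot. By gene, 7 of the 9 had negative fold changes, with a median log2 fold change of -0.41. The factor Hnf4a, at -0.41 ± 0.13 (SE), was lower at an unadjusted edgeR p under 0.05 (1 of the 9, against 5.69% of all genes tested). The part of hepatocyte content in the results below was not tested. The 6 libraries were not alike within a dressing. Of the AKOC libraries, replicate 1 had 1.55 CPM of the clock gene Npas2 against 12.3 and 13.3 CPM in replicates 2 and 3. Of the Quik-clot libraries, replicate 3 had 2403 CPM of the acute-phase protein A2m against 5.29 and 31.9 CPM in replicates 1 and 2. The 6 tested T or NK cell markers, of 7 listed, summed to between 9.59 and 11.9 CPM after AKOC, against between 12.9 and 36.9 CPM after Quik-clot, and their part in the results below was not tested. No pair of libraries of 1 dressing agreed within sampling noise, with chi-square values per degree of freedom between 142 and 396.

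Most of the 35 genes had lower levels after AKOC, but none passed the test over all genes. The fitted log2 fold change, AKOC over Quik-clot, was negative for 26 genes and positive for 9. Its median over the 35 genes was -0.30, against -0.01 over all genes tested. With edgeR's quasi-likelihood test and Benjamini-Hochberg adjustment, 0 of the 35 genes passed an adjusted p of 0.05, and 0% of all genes tested did; the lowest adjusted p of any gene was 0.181. At an unadjusted p under 0.05, 3 genes were lower after AKOC (8.57% of the 35, against 5.69% of all genes tested). These were Lss, Hsd17b7 and Srebf2. Insig2 alone was higher at that level (2.86%, against 6.78% of all genes tested). In 2 genes, Lss and Hsd17b7, every AKOC library lay below every Quik-clot library (5.71%, against 8.84% of all genes), and in Insig2 every AKOC library lay above (2.86%, against 9.53%). In this fit these shares were near or below the background. The count of genes lower at an unadjusted p under 0.05 stayed at 3 in some other edgeR fits to the same 6 libraries. These used median-of-ratios scaling (against 5.79% of all genes), no filter (4.48%) or a filter of at least 1 CPM in 3 libraries (5.89%). Library totals gave 4 genes (11.4%, against 5.41%). Fits by other tools gave larger shares. DESeq2 gave 6 genes (17.1%, against 6.09% of all genes) and limma-voom with sample weights 8 (22.9%, against 6.17%). Limma on log2(FPKM + 1) gave 6 (17.1%) and on log2(FPKM + 0.1) gave 8 (22.9%), each against 4.75%. DESeq2 called Lss, with an adjusted p of 0.0229, and Hsd17b7, with an adjusted p of 0.0374, as lower at an adjusted p of 0.05, and 0.693% of the genes it tested were called lower. It called Insig2 as higher, with an adjusted p of 0.000737, where 1.39% of genes were called higher. In bulk tissue, fewer cells of a type and less RNA per cell cannot be told apart.

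**Figure D1:**
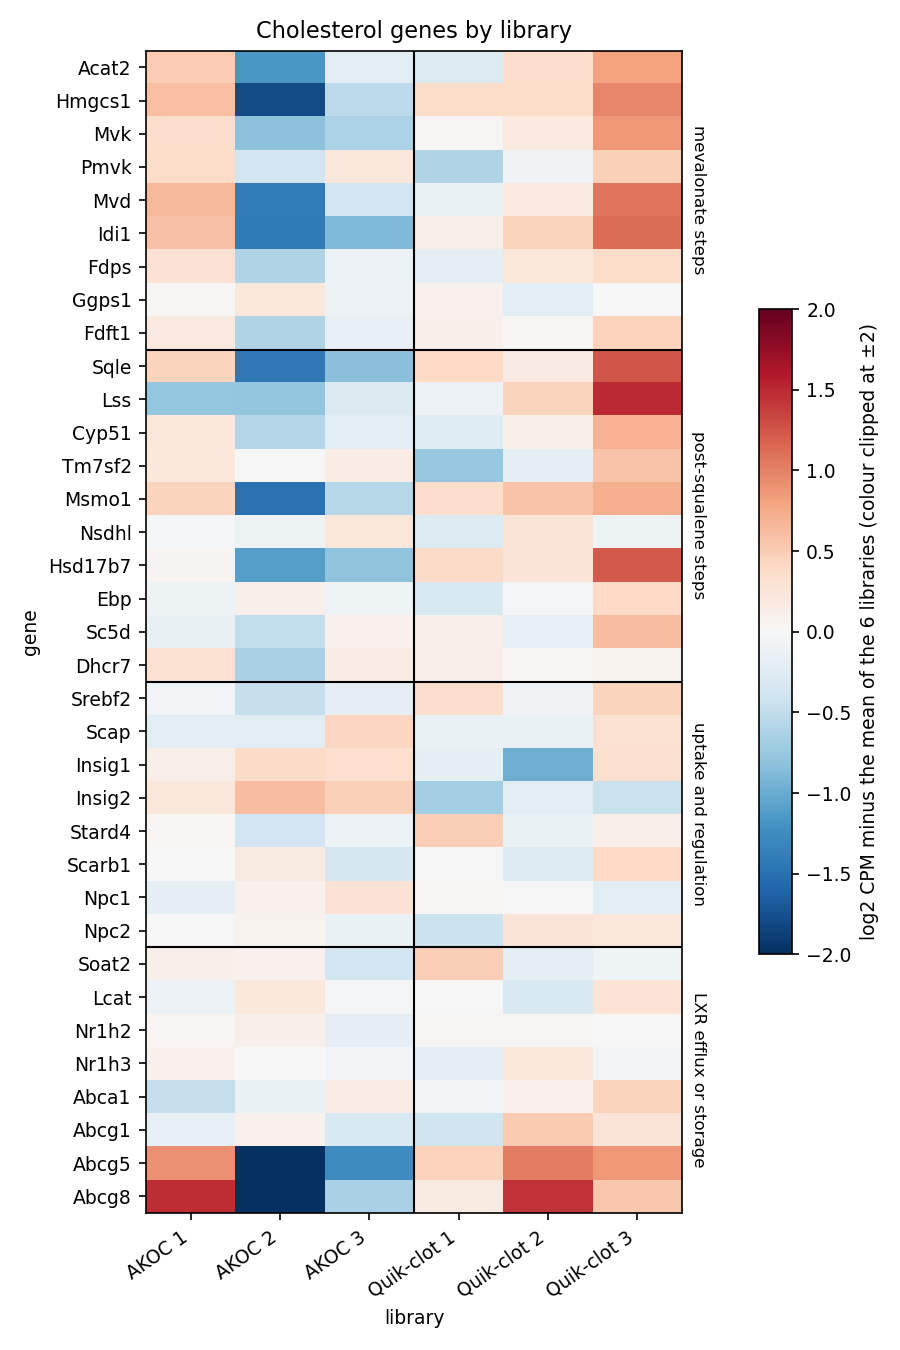
Heat map of the 35 genes (rows, grouped by role) in the 3 AKOC libraries (left) and the 3 Quik-clot libraries (right). Colour is log2 CPM minus the gene's mean over the 6 libraries, drawn from -2 to 2. AKOC replicate 2 is the lowest of the 6 libraries in 14 of the 19 synthesis enzymes and Quik-clot replicate 3 is the highest in 16.

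Because the sequence just upstream of a gene's start carries sites of the factors that regulate it, the promoters of the 4 genes at an unadjusted p under 0.05 are shown. The windows run from 250 bases before the annotated start to 50 bases after it, in RefSeq's annotation of GRCr8, 5′ to 3′ on the gene's strand. This build differs from the submitters' build, mRatBN7.2. Capitals mark the box CCAAT of the factor NF-Y, which on the opposite strand reads ATTGG, and TCACNCCA, a shortened core of the sterol regulatory element that SREBP binds. Lss lies at chr20:12118181-12118480 on the minus strand, Hsd17b7 at chr13:84722705-84723004 on the minus strand, Srebf2 at chr7:115543057-115543356 on the plus strand and Insig2 at chr13:35040049-35040348 on the minus strand.
Lss: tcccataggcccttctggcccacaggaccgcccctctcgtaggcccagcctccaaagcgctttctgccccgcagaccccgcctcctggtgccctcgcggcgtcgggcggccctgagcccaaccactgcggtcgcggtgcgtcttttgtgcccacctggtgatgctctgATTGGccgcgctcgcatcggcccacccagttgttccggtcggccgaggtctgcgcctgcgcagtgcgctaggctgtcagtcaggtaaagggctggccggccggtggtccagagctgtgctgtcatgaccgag
Hsd17b7: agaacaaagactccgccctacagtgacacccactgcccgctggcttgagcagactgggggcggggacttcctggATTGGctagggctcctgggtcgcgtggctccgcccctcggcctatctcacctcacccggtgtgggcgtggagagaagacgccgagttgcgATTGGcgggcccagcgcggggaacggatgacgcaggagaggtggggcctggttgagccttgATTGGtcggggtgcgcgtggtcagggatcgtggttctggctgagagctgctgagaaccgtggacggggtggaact
Srebf2: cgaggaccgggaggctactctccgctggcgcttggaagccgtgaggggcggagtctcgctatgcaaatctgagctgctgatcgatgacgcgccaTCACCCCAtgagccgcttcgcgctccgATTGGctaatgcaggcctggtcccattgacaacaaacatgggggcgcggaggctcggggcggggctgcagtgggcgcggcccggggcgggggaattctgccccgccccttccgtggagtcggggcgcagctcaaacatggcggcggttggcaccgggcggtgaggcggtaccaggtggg
Insig2: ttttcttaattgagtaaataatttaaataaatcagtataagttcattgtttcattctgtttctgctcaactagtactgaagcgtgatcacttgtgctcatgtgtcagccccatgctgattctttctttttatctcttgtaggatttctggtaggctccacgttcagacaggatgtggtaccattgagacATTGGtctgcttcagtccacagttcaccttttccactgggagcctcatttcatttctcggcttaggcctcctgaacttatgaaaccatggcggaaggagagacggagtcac
The Hsd17b7 window held 3 CCAAT boxes, whose left ends lie at -176, -86 and -25 from the start. The Lss window held 1, at -82, and the Insig2 window held 1, at -61. The Srebf2 window held the shortened sterol element at -156 and a CCAAT box at -129. Whether the annotated starts, that of Insig2 included, are the starts used in these samples was not tested. A window may therefore not be the promoter in use.

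Promoter sequences were matched for 28 of the 35 genes; Pmvk, Fdft1, Sqle, Stard4, Scarb1, Soat2 and Abcg1 were not matched. All motifs were searched on both strands. CCAAT was found in 20 of the 28 promoters (71.4%), against 37.5% of all 33469 promoters in the table. The Abcg5 and Abcg8 windows are nearly the same stretch read on opposite strands, so their shared CCAAT box was counted for both. Among the 16 matched synthesis enzymes, 13 had CCAAT (81.2%). The Sp1 box GGGCGG was also in 13 of these 16 and in 19 of the 28 promoters (67.9%), against 33.1% of all promoters and 56.5% of the promoters of genes tested. The 9-letter core TCACNCCAC was in 0 of the 28 and in 1.12% of all promoters. The shortened form, which overlaps the longer one and was added after that search, was found in Msmo1 and Srebf2, or 7.14%, against 3.89% of all promoters. The E-box CACGTG was in the promoters of Sc5d, Scap, Insig1 and Abca1 (14.3%), against 6.42% of all promoters and 8.98% of the promoters of genes tested. An exact direct repeat of AGGTCA with a 4-base spacer, an idealised form of the site LXR proteins bind, was in none of the 28. It was in 0.00598% of all promoters and 0% of the promoters of genes tested. So rare a string could hardly appear in 28 windows, and sites with other letters were not searched. Its absence therefore does not show that these windows lack LXR sites. These are matches of letters in a short window, not sites shown to be bound.

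The mevalonate genes had negative fold changes in 7 of 9 cases, with a median log2 fold change of -0.50, and the dressings overlapped in all 9. Hmgcs1, the cytosolic HMG-CoA synthase that commits acetoacetyl-CoA to the pathway, had 513, 81.9 and 206 FPKM (fragments scaled to gene length and library total) after AKOC, against 451, 433 and 558 FPKM after Quik-clot. In scaled counts it had 1919, 365 and 874 CPM after AKOC, against 1622, 1631 and 2491 CPM after Quik-clot. AKOC replicate 1 lay within the Quik-clot range while replicates 2 and 3 lay below all Quik-clot libraries. The log2 fold change was -0.86 ± 0.55 (SE), with an adjusted p of 0.539 by edgeR. Without AKOC replicate 2 it was -0.46, and without AKOC replicate 1 it was -1.63.

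Idi1, which interconverts the isoprene building blocks, had the most negative fold change of the mevalonate steps. Its levels were 309, 76.7 and 112 CPM after AKOC, against 226, 280.0 and 444 CPM after Quik-clot, a log2 fold change of -0.93 ± 0.52 with an adjusted p of 0.488. Here too AKOC replicate 1 stood among the Quik-clot libraries and the other AKOC libraries below them. Mevalonate kinase, Mvk, had a log2 fold change of -0.67 ± 0.35, and mevalonate diphosphate decarboxylase, Mvd, one of -0.61 ± 0.51. The thiolase Acat2, which makes acetoacetyl-CoA, was at -0.50 ± 0.43. Squalene synthase, Fdft1, and farnesyl diphosphate synthase, Fdps, were at -0.36 ± 0.22 and -0.26 ± 0.25. Phosphomevalonate kinase, Pmvk, was at 0.10 ± 0.30, and Ggps1, which leads off to the geranylgeranyl branch rather than to sterols, was at 0.08 ± 0.15. Both signs turned in at least 1 refit that left out a library. Refits without 1 library ranged from -1.75 without AKOC replicate 1 to -0.59 without AKOC replicate 2 for Idi1, and from -1.13 without AKOC replicate 1 to -0.38 without Quik-clot replicate 3 for Mvk. Likewise, Mvd ranged from -1.28 without AKOC replicate 1 to -0.19 without Quik-clot replicate 3. Leaving out AKOC replicate 1 gave -0.98 for Acat2, -0.57 for Fdft1 and -0.50 for Fdps, while leaving out AKOC replicate 2 gave -0.18 for Acat2, -0.19 for Fdft1 and -0.06 for Fdps. These 6 genes kept a negative sign, with a size that rested on single libraries. Unadjusted p-values of the 9 genes lay above 0.05.

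The steps after squalene held both enzymes without overlap between the dressings, Lss and Hsd17b7. Genes with every AKOC library below every Quik-clot library were no more frequent in the full set described here than elsewhere. They made up 5.71% of that set, against 8.84% of all genes tested. The median log2 fold change of the 10 genes after squalene was -0.39, with 8 negative values. Lss, lanosterol synthase, closes the sterol rings. It had 69.4, 68.6 and 97.0 CPM after AKOC, against 109, 161 and 334 CPM after Quik-clot. All AKOC libraries lay below all Quik-clot libraries, although Quik-clot replicate 3 was far above replicates 1 and 2. The AKOC libraries averaged 78.3 ± 16.2 CPM and the Quik-clot libraries 201 ± 118 CPM (SD, n = 3 each), a log2 fold change of -1.36 ± 0.39 with an adjusted p of 0.312 by edgeR and an unadjusted p of 0.00987. Without Quik-clot replicate 3 the log2 fold change was -0.79. The unadjusted edgeR p stayed under 0.05 in each of the 6 refits that left out a library.

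Hsd17b7, the keto-reductase that works on the sterol after removal of a methyl group, also had lower levels after AKOC. It had 82.1, 36.9 and 45.4 CPM after AKOC, against 103, 94.4 and 184 CPM after Quik-clot. The groups did not overlap, although AKOC replicate 1 came close to the lowest Quik-clot library. The log2 fold change was -1.22 ± 0.36, with an adjusted p of 0.315 by edgeR and an unadjusted p of 0.0119. Its unadjusted p was also under 0.05 in each refit with 1 library left out, where the log2 fold change lay between -1.63 and -0.85.

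Sqle, squalene epoxidase, is a rate-limiting oxygen-dependent step. It had 138, 37.5 and 56.9 CPM after AKOC, against 134, 113 and 242 CPM after Quik-clot. The groups overlapped only through AKOC replicate 1. The log2 fold change was -1.07 ± 0.50, with an adjusted p of 0.423 by edgeR. Leaving out Quik-clot replicate 3 gave -0.67, and leaving out AKOC replicate 1 gave -1.79. Msmo1, the methylsterol monooxygenase, had 473, 124 and 234 CPM after AKOC, against 444, 515 and 571 CPM after Quik-clot, with a log2 fold change of -0.88 ± 0.43 that ranged from -1.51 with AKOC replicate 1 left out to -0.53 with AKOC replicate 2 left out.

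The fold changes of the other 6 enzymes were nearer to 0. The lanosterol demethylase Cyp51 and the lathosterol oxidase Sc5d were both at -0.39, with standard errors of 0.30 and 0.25, and without Quik-clot replicate 3 they were at -0.09 and -0.14. The sterol isomerase Ebp and the final reductase Dhcr7 were both at -0.08, with standard errors of 0.19 and 0.23. The sterol dehydrogenase Nsdhl was at 0.07 ± 0.18 and the sterol reductase Tm7sf2 at 0.14 ± 0.30. Tm7sf2 had 172, 149 and 164 CPM after AKOC, against 87.9, 131 and 220.1 CPM after Quik-clot. Its value without Quik-clot replicate 3 was 0.56, with an unadjusted edgeR p of 0.0228. The fold changes within one pathway therefore spanned from -1.36 for Lss to 0.14 for Tm7sf2.

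**Figure D2:**
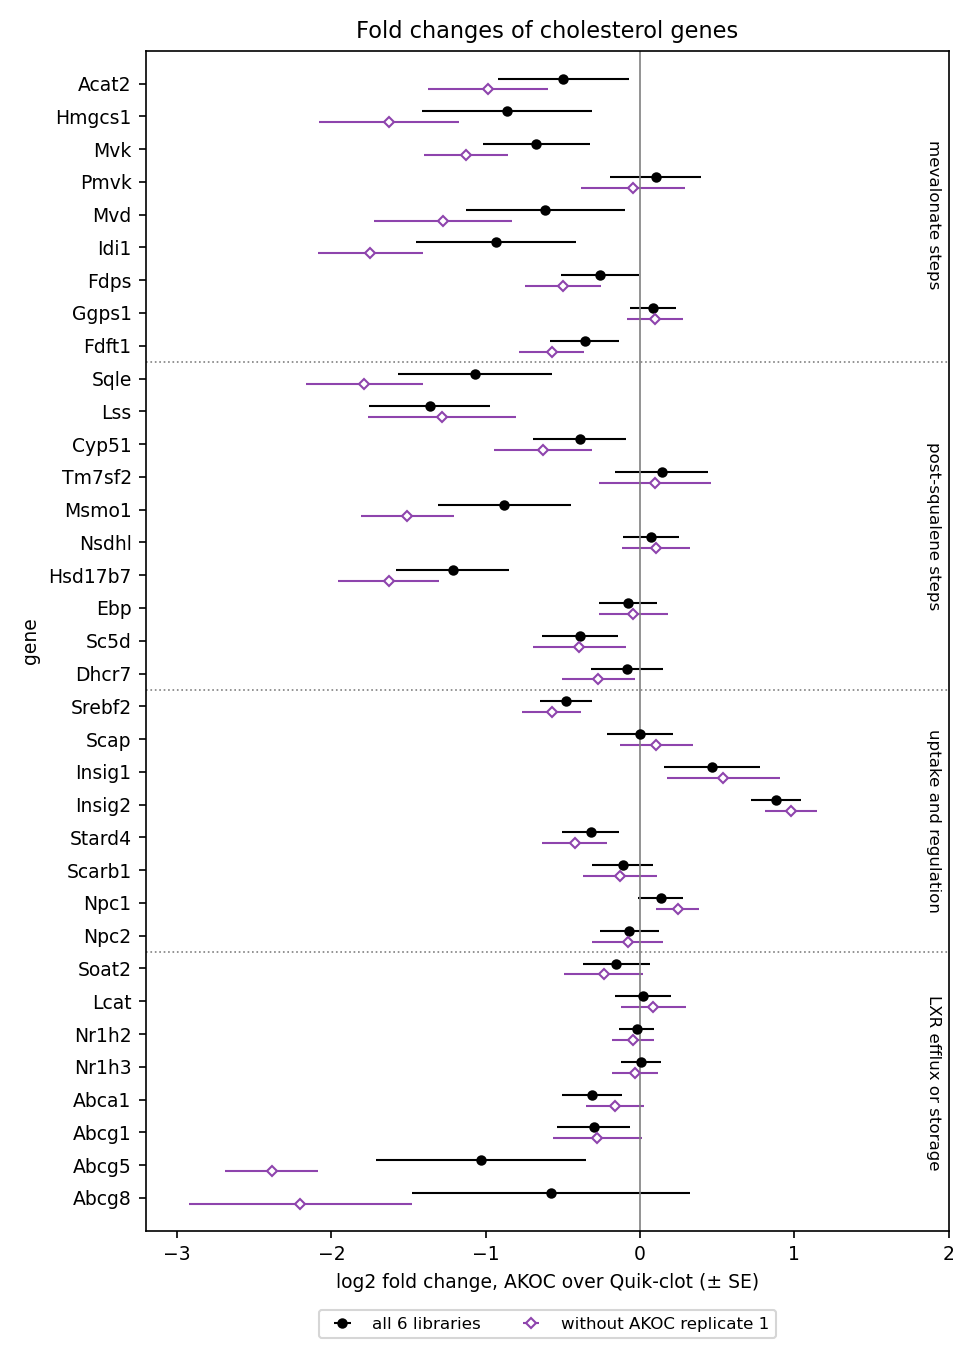
Fold changes on the log2 scale, AKOC over Quik-clot, for the 35 genes by role (horizontal axis; bars are SE), from all 6 libraries (filled circles) and without AKOC replicate 1 (open diamonds). The 19 synthesis enzymes run from -1.36 to 0.14 with all libraries, and Sqle and Idi1 reach -1.79 and -1.75 without AKOC replicate 1.

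The regulators gave no common direction, with Srebf2 lower and Insig2 higher at an unadjusted p under 0.05. Of the 8 genes of uptake and regulation, the median log2 fold change was -0.04, with 5 negative and 3 positive values. Srebf2 had 76.8, 57.7 and 70.0 CPM after AKOC, against 101, 75.6 and 108 CPM after Quik-clot. AKOC replicate 1 was just above Quik-clot replicate 2, so the groups overlapped by that pair. The AKOC libraries averaged 68.2 ± 9.68 CPM and the Quik-clot libraries 94.9 ± 17.1 CPM (SD, n = 3 each), a log2 fold change of -0.48 ± 0.17 with an adjusted p of 0.361 by edgeR and an unadjusted p of 0.025. The unadjusted p was above 0.05 in 4 of the 6 refits that left out a library.

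Insig2 was the only one of the 35 genes with higher levels at an unadjusted p under 0.05. It had 171, 223 and 203 CPM after AKOC, against 90.6, 126 and 107 CPM after Quik-clot. All AKOC libraries lay above all Quik-clot libraries, AKOC replicate 1 included. The AKOC libraries averaged 199 ± 26.4 CPM and the Quik-clot libraries 108 ± 17.9 CPM (SD, n = 3 each), a ratio of 1.84. The log2 fold change was 0.88 ± 0.16, with an adjusted p of 0.244 by edgeR and an unadjusted p of 0.000881. Leaving out each library in turn gave values between 0.77 and 1.01, with unadjusted p-values no higher than 0.00392.

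Insig1, the Insig form that SREBP itself raises in many cells, had 781, 940 and 912 CPM after AKOC, against 637, 369 and 904 CPM after Quik-clot. Quik-clot replicate 3 lay inside the AKOC range and the other Quik-clot libraries lay below it. The log2 fold change was 0.46 ± 0.31, with an adjusted p of 0.559 by edgeR. Without Quik-clot replicate 2 it was 0.19, and without Quik-clot replicate 3 it was 0.80. Per transcript length, Insig2 stood at 58.1 ± 2.68 FPKM after AKOC and 33.5 ± 6.31 FPKM after Quik-clot, and Insig1 at 227 ± 3.38 FPKM after AKOC and 171 ± 58.6 FPKM after Quik-clot (SD, n = 3 each). The ratio of Insig2 to Insig1 FPKM was 0.247, 0.269 and 0.251 after AKOC, against 0.161, 0.387 and 0.134 after Quik-clot. The AKOC ratios lay between those of the Quik-clot libraries.

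Scap, the sterol-sensing escort of SREBP, had a log2 fold change of -0.003 ± 0.21. Stard4, a small carrier that moves sterol between membranes, was at -0.32 ± 0.19. Scarb1, the hepatic receptor for high-density lipoprotein, was at -0.11 ± 0.20. Npc1 and Npc2, which release lipoprotein cholesterol from lysosomes, were at 0.13 ± 0.14 and -0.07 ± 0.19. None of these 5 genes had an unadjusted p under 0.05 with all libraries.

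**Figure D3:**
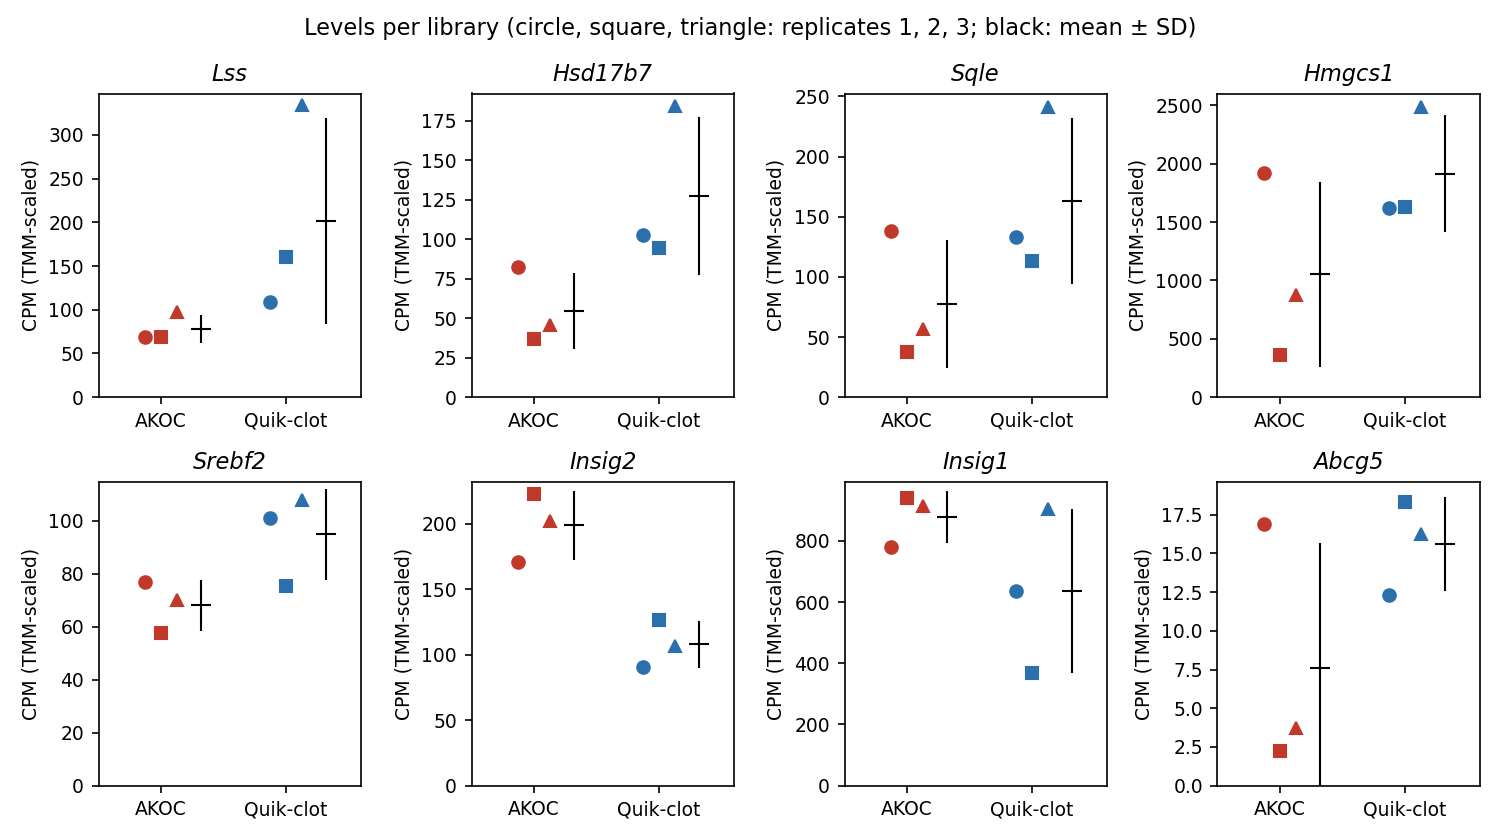
Scaled counts (CPM, linear axes starting at 0, one panel per gene) in the 3 AKOC libraries (left in each panel) and the 3 Quik-clot libraries (right). Circles, squares and triangles are replicates 1, 2 and 3, and black lines are means with SD; where the mean minus the SD falls below 0 the bar ends at the axis. Insig2, Lss and Hsd17b7 do not overlap between dressings. In Abcg5, AKOC replicate 1 stands at 16.9 CPM and the other AKOC libraries at 2.24 and 3.73 CPM.

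The LXR receptors themselves had near-equal levels, whereas the canalicular transporters varied several-fold among the AKOC libraries. Nr1h3, which encodes LXR-alpha, had 114, 107 and 103 CPM after AKOC, against 94.4, 125 and 104 CPM after Quik-clot. Its log2 fold change was 0.01 ± 0.13, with an adjusted p of 0.986 by edgeR, and that of Nr1h2, which encodes LXR-beta, was -0.02 ± 0.11. The AKOC libraries of Nr1h3 lay within the Quik-clot range.

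Abcg5 and Abcg8 encode the partners of 1 transporter, which secretes cholesterol into bile. Abcg5 had 16.9, 2.24 and 3.73 CPM after AKOC, against 12.3, 18.3 and 16.3 CPM after Quik-clot. Abcg8 had 13.4, 0.614 and 3.08 CPM after AKOC, against 5.46, 13.1 and 6.97 CPM after Quik-clot. In both genes AKOC replicate 1 was high and AKOC replicates 2 and 3 lay below all Quik-clot libraries. The log2 fold change of Abcg5 was -1.03 ± 0.68 and that of Abcg8 was -0.58 ± 0.90, with adjusted p-values of 0.551 and 0.811 by edgeR. Without AKOC replicate 1 the values were -2.39 ± 0.30 for Abcg5, with an adjusted p of 0.114, and -2.20 ± 0.72 for Abcg8, with an adjusted p of 0.354. Without AKOC replicate 2 they were -0.60 for Abcg5 and -0.05 for Abcg8, and without Quik-clot replicate 2 the value for Abcg8 was -0.12. The highest library exceeded the lowest 21.8-fold for Abcg8 and 8.16-fold for Abcg5, against 1.22-fold for Nr1h2 and a median of 1.65-fold over all genes tested.

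Abca1, which loads cholesterol onto nascent high-density lipoprotein, had 92.6, 118 and 143 CPM after AKOC, against 125, 137 and 176 CPM after Quik-clot. AKOC replicate 3 lay within the Quik-clot range and the others below it. Its log2 fold change was -0.31 ± 0.20, with an adjusted p of 0.534 by edgeR. Abcg1, which exports sterol to mature lipoprotein particles, was at -0.30 ± 0.24. Soat2, which esterifies cholesterol in hepatocytes, was at -0.15 ± 0.22, and Lcat, the secreted enzyme that esterifies it in plasma, was at 0.02 ± 0.18. The median of the 8 genes was -0.23, with 6 negative values.

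The synthesis enzymes differed widely between libraries of the same dressing. The summed level of the 19 enzymes was 6652, 3188 and 4696 CPM after AKOC, against 5647, 6312 and 8834 CPM after Quik-clot. AKOC replicate 1 was thus above Quik-clot replicates 1 and 2, and Quik-clot replicate 3 was above all others. AKOC replicate 1 was the highest of the AKOC libraries in 14 of the 19 enzymes and AKOC replicate 2 the lowest in 17. The median ratio of the highest to the lowest library was 2.51 for the 19 enzymes, 1.75 for uptake and regulation and 1.87 for efflux or storage, against 1.65 for all genes tested.

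The library whose omission most changed the count of lower genes was AKOC replicate 1. Without it, 13 of the 35 genes were lower at an unadjusted edgeR p under 0.05 (37.1%, against 5.23% of all genes tested in the same refit). They comprised 6 mevalonate enzymes, 4 enzymes after squalene, Srebf2, Abcg5 and Abcg8. Of the 35 genes, 12 lay below all Quik-clot libraries in both remaining AKOC libraries (34.3%, against 15.3% of all genes), and the median of the mevalonate steps was -0.98. The count higher at that p stayed at 1 without AKOC replicate 1 and was 3 without Quik-clot replicate 3, namely Insig2, Insig1 and Tm7sf2 (8.57%, against 5.27% of all genes). No gene of the 35 passed adjustment without AKOC replicate 1, the lowest adjusted p being 0.114. Genes lower at an unadjusted edgeR p under 0.05 numbered 2 (5.71%) without AKOC replicate 2 (against 3.58%), AKOC replicate 3 (against 3.1%) or Quik-clot replicate 3 (against 4.47%). They numbered 3 without Quik-clot replicate 1 (8.57%, against 4.5%) and 4 without Quik-clot replicate 2 (11.4%, against 7.59%). AKOC replicate 1 was singled out from these same genes, so the refit without it is no test of them. AKOC replicate 1 also differed from replicates 2 and 3 in some clock genes. Bmal1, a core clock activator, had 20.6, 36.7 and 35.8 CPM after AKOC, against 7.88, 6.33 and 9.67 CPM after Quik-clot. Dbp, a clock output factor, had 8.33, 3.42 and 3.55 CPM after AKOC, against 21.9, 28.3 and 20.2 CPM after Quik-clot. In both genes replicate 1 was the AKOC library nearest to Quik-clot. In Per1 it lay near replicate 2, with 20.99, 20.34 and 14.45 CPM after AKOC. In Per2 it lay between the others, with 11.79, 6.407 and 15.91 CPM. With all libraries, 3 of the 11 listed clock genes were higher at an unadjusted edgeR p under 0.05 (27.3%, against 6.78% of all genes tested). Another 7 of the 11 were lower (against 5.69%). The part of the clock genes in the levels of the sterol genes was not tested.

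Acute-phase genes were high both in Quik-clot replicate 3, the library highest in most enzymes, and in AKOC replicate 2, the library lowest in most. The 8 listed acute-phase genes summed to 31950, 56950 and 25790 CPM after AKOC, against 23390, 31300.0 and 74000 CPM after Quik-clot. The carrier protein Orm1 had 1811, 8359 and 791 CPM after AKOC, against 823, 1737 and 11300 CPM after Quik-clot. Hamp, which encodes the iron hormone hepcidin, did not follow this order, with 177, 63.8 and 27.2 CPM after AKOC, against 822, 460 and 56.7 CPM after Quik-clot. Orm1 and Hamp were chosen after their values were seen. Lcn2, an iron-binding protein of the acute phase, had 13.6, 262 and 3.10 CPM after AKOC, against 10.2, 20.9 and 3167 CPM after Quik-clot. Without Quik-clot replicate 3 the median log2 fold change was -0.21 for the mevalonate steps and -0.12 for the steps after squalene. The part of the acute-phase genes in these levels was not tested. The 4 tested neutrophil markers of a list of 5 summed to 46.6, 29.9 and 11.6 CPM after AKOC, against 6.92, 18.1 and 105 CPM after Quik-clot, and their part was not tested either.

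**Figure D4:**
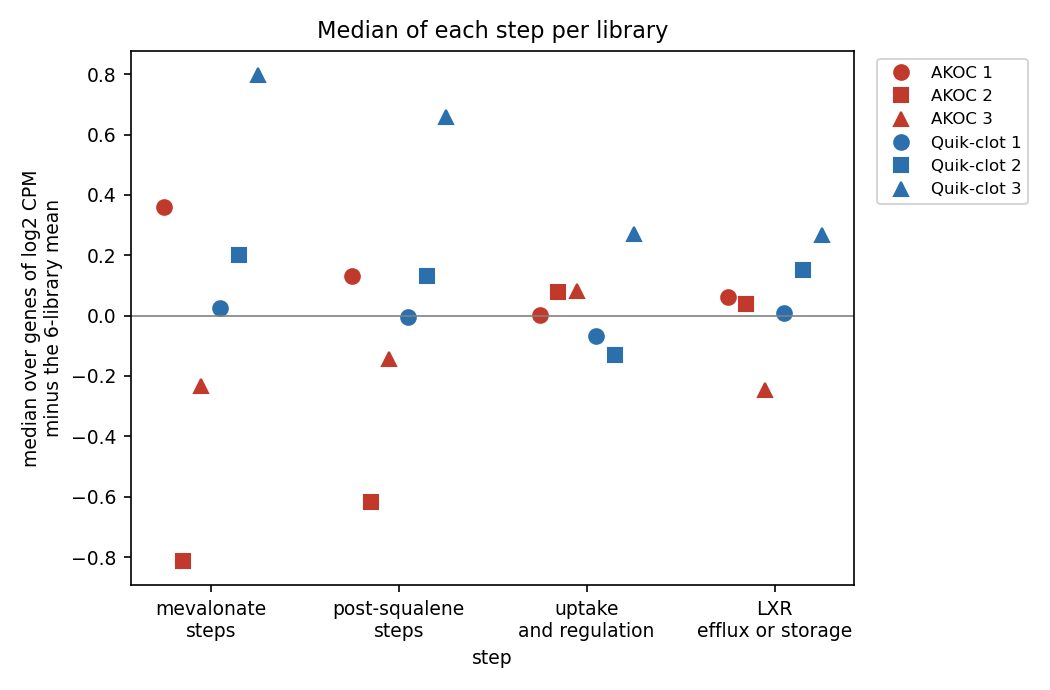
Median over the genes of each role of log2 CPM minus the gene's mean over the 6 libraries (vertical axis), for the 3 AKOC libraries (red, left at each role) and the 3 Quik-clot libraries (blue, right). The mevalonate medians are 0.36, -0.81 and -0.23 in AKOC replicates 1 to 3 and 0.02, 0.20 and 0.80 in Quik-clot replicates 1 to 3, while uptake and regulation stay between -0.13 and 0.27.

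Of 13 genes outside the 35 that SREBP proteins also regulate, a list chosen with earlier results of these data known, 9 were positive and 4 negative, with a median log2 fold change of 0.35, and 4 were higher at an unadjusted p under 0.05 (30.8%, against 6.78% of all genes tested). Srebf1, whose product drives fatty acid synthesis, had 179, 213 and 297 CPM after AKOC, against 89.9, 165 and 76.8 CPM after Quik-clot. All AKOC libraries lay above all Quik-clot libraries, by a log2 fold change of 1.05 ± 0.32 with an adjusted p of 0.318 by edgeR and 0.0493 by DESeq2. The desaturases Fads2 and Fads1 were at 0.93 ± 0.36 and 0.76 ± 0.31, and fatty acid synthase, Fasn, at 0.73 ± 0.30. The ratio of Srebf1 to Srebf2 FPKM was 2.94, 4.64 and 5.33 after AKOC, against 1.12, 2.75 and 0.895 after Quik-clot. These ratios did not overlap, and the smallest two-sided p that an exact test of 3 against 3 allows is 0.1.

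The machinery that senses sterols and cleaves SREBP showed 5 positive and 7 negative values over 12 genes, with a median of -0.09. Rnf139, a ubiquitin ligase of the endoplasmic reticulum, was at -0.28 ± 0.11. It alone had an unadjusted edgeR p under 0.05 (1 of the 12 lower, against 5.69% of all genes tested). Spring1, needed for SREBP activation, was at -0.55 ± 0.25. The isoprenoid branches that leave the mevalonate pathway had a median of -0.02 over 14 genes. Of these, Zmpste24, which trims prenylated lamin A, was at 0.28 ± 0.10 and Coq2, of ubiquinone synthesis, at 0.43 ± 0.16. These 2 of the 14 were higher at an unadjusted edgeR p under 0.05 (14.3%, against 6.78% of all genes tested).

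Among 16 genes of intracellular sterol transport, with a median of 0.01, Nceh1, which hydrolyses cholesteryl esters, had the smallest p. It had 15.1, 11.4 and 5.42 CPM after AKOC, against 30.7, 23.5 and 41.6 CPM after Quik-clot. All AKOC libraries lay below all Quik-clot libraries, by a log2 fold change of -1.59 ± 0.38 with an adjusted p of 0.282 by edgeR and 0.00312 by DESeq2. Nceh1 is known from macrophages. The 9 macrophage markers, all tested, summed to 977, 1043 and 706 CPM after AKOC, against 833, 1442 and 1036 CPM after Quik-clot. By gene, 8 of the 9 had negative fold changes, with a median log2 fold change of -0.29. Cd163, at -0.51 ± 0.15, and Csf1r, at -0.59 ± 0.23, were lower at an unadjusted edgeR p under 0.05. That is 2 of the 9, against 5.69% of all genes tested. The part of these markers in the level of Nceh1 was not tested.

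Sterol catabolism and lipoprotein handling gave mixed values. Of the 7 tested genes of bile acid synthesis, out of 8 listed, 5 were negative, with a median of -0.19. Cyp7a1, the rate-limiting enzyme of bile acid synthesis, had 751, 642 and 731 CPM after AKOC, against 417, 1080.0 and 1129 CPM after Quik-clot, a log2 fold change of -0.31 ± 0.36. Cyp8b1, which directs synthesis to cholic acid, was at -0.96 ± 0.27 without overlap between dressings, with an adjusted p of 0.0288 by DESeq2, and the oxysterol hydroxylase Cyp39a1 was at 0.41 ± 0.12, also without overlap. Hepatic lipase, Lipc, was at 0.79 ± 0.29, with all AKOC libraries above all Quik-clot libraries, and the lipoprotein receptor Vldlr was at -0.76 ± 0.34, in a list of 10 tested genes with a median of 0.10. Over 10 other LXR targets, which share Srebf1 with the SREBP list, the median was 0.09, with 6 positive and 4 negative values. The desaturase Scd, which makes monounsaturated fatty acids, had 1803, 6840.0 and 5821 CPM after AKOC, against 26.7, 165 and 178 CPM after Quik-clot. All AKOC libraries lay far above all Quik-clot libraries, by a log2 fold change of 5.29 ± 0.89 with an adjusted p of 0.234 by edgeR and 1.53e-09 by DESeq2. None of the genes in these lists passed adjustment by edgeR.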

How the data were processed

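Total RNA of rat liver was extracted with TRIzol and made into libraries with a VAHTS RNA-seq kit, per the labels' protocols. The submitters' processing notes name fastp, HISAT2, HTSeq and the build mRatBN7.2, with no versions; whether counting used strand is not given in the sources used here. The authors deposited whole-number read counts per gene without normalization. They also deposited FPKM, which equalled count per gene length and total count to a relative error of 8.58e-07; FPKM served only for levels between genes and as an alternative.

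Counts were scaled by TMM and filtered (minimum count 10, minimum total 15, 13872 genes kept), then tested with edgeR 4.0.16 in R 4.3.3 (quasi-likelihood, two-sided, Benjamini-Hochberg over all genes kept, dressing as the only term). The biological coefficient of variation was 27.2%. CPM are TMM-scaled; SE is the log2 fold change over the root of F. The fit was tested on simulated data. Alternatives used DESeq2 1.42.0, limma 3.58.1, other scaling and filters, a replicate block and each library left out. No deposited value column was left unused. The members and lists were chosen with earlier results of these data known, so no list was tested. Values per library are given for members at an unadjusted p under 0.05 or without overlap, for Srebf2, Insig1, Sqle, Lss, Hmgcs1, Nr1h3, Abca1, Abcg5 and Abcg8 in any case, and, chosen after their values were seen, for Idi1, Msmo1 and Tm7sf2. Other lists name the genes of smallest p. Promoters came from RefSeq, GRCr8.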

Additional observations from a re-analysis of the deposited data

How the results depend on the processing

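No member passed an adjusted p of 0.05 under any edgeR or limma alternative, nor at 0.1 with all libraries, while DESeq2 called 1 higher and 2 lower. Members lower at an unadjusted p under 0.05 numbered 3 by median-of-ratios scaling (background 5.79% of all genes), with no filter (4.48%) and with at least 1 CPM in 3 libraries (5.89%). Library totals gave 4 (5.41%). They numbered 6 by DESeq2 (6.09%), 8 by limma-voom (6.17%), 6 by limma on log2(FPKM + 1) and 8 on log2(FPKM + 0.1) (each 4.75%). With 1 library left out they numbered 2 to 4 (5.71 to 11.4%), except for 13 (37.1%) without AKOC replicate 1 (background 3.1 to 7.59%). Those higher numbered 1 to 3 (2.86 to 8.57%) with 1 left out (background 4.52 to 9.8%). Members without overlap that were higher numbered 2 (5.71%) by library totals and by both FPKM scales (background 4.95% each) and 1 to 3 (2.86 to 8.57%) with 1 library left out (background 13.2 to 18.5%). Those lower numbered 2 to 5 (5.71 to 14.3%) with 1 left out, except for 12 (34.3%) without AKOC replicate 1 (background 12.4 to 17.3%). The replicate block gave 6 lower (background 3.97%) at an unadjusted p under 0.05, but same-numbered libraries did not deviate together (correlations of -0.0719, -0.0822 and -0.201), so they share only a number. Of the members, 22 kept 1 sign under all 15 alternatives and 13 did not, each of these with a log2 fold change within 0.16 of 0. By library totals, Nsdhl, Lcat and Nr1h3 became -0.0084, -0.0511 and -0.0662; on log2(FPKM + 1) Lcat and Nr1h3 became -0.0438 and -0.0578, and on log2(FPKM + 0.1) -0.044 and -0.0589. Scap became 0.00133 with no filter and 0.000848 with at least 1 CPM in 3 libraries. With 1 library left out, the ranges were -0.13 to 0.42 for Pmvk, -0.0195 to 0.17 for Ggps1, -0.12 to 0.56 for Tm7sf2, -0.0379 to 0.23 for Nsdhl, -0.23 to 0.13 for Ebp, -0.27 to 0.15 for Dhcr7, -0.25 to 0.15 for Scap, -0.25 to 0.0843 for Scarb1, -0.26 to 0.04 for Npc2, -0.28 to 0.0899 for Soat2, -0.12 to 0.17 for Lcat, -0.0897 to 0.0587 for Nr1h2, -0.0785 to 0.13 for Nr1h3, -4.29 to 1.75 for A2m and -7.00 to 2.59 for Lcn2. The causes were not tested.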
